A study of Mus musculus with 8 samples.

Results

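The B-class ephrins and their Eph receptors were followed as 8 genes of the 23284 symbols counted in cultured mouse ovarian cancer cells with and without an active form of Notch3. The members are defined by gene symbol, with no measured value in the rule, and were picked with earlier results of these data known. They are the ligands Efnb1, Efnb2 and Efnb3 and the receptors Ephb1, Ephb2, Ephb3, Ephb4 and Ephb6. All 8 passed the expression filter, which left 12430 genes to test. The cells were ID8 IP2, a subline of the mouse ovarian surface epithelial line ID8 that had been passaged through C57BL/6 mice, carrying luciferase and mCherry from a FUW vector. Notch3IC cells were infected with a pCCL lentivirus that encodes the HA-tagged intracellular domain of Notch3 and, behind an IRES, GFP, and Control cells with the empty pCCL vector, so that GFP goes with Notch3IC. Each of Sets 1 to 4 pairs a Control line with a Notch3IC line from an independent infection, which gave 4 libraries per condition. The study also proposes, from a later test, a mycoplasma infection shared by every ID8 IP2 line, Control and Notch3IC alike, and present from start to end. In Sets 1 to 4 the Control libraries held 24910528, 19013578, 23601232 and 28208072 counts and the Notch3IC libraries 22980440, 15524262, 25344051 and 27107061.

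B-class ephrins are transmembrane proteins and the Eph receptors that bind them are receptor tyrosine kinases, so that contact between neighbouring cells signals into both of them, forward through the receptor and in reverse through the ephrin. The system is known for sorting cells at boundaries and for repulsion or adhesion between cells. In blood vessels ephrin-B2 marks arteries and EphB4 marks veins, and Notch signaling is known to favour the arterial side. The question put to the 8 genes was whether they differ between Notch3IC and Control lines, over all libraries and within each set.

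Inside the nucleus the Notch intracellular domain acts with the DNA-binding protein RBPJ, whose core motif TGGGAA was looked for on both strands in RefSeq promoters of GRCm38.p6, each from 250 bases before to 50 bases after the gene's start. Of 32851 such promoters 25.6% held the motif, and 7.15% held the letters CACGTG, an E-box form bound by Hey repressors. Promoters were present for 7 of the 8 members, all but Efnb3. Efnb1 had 2 matches of TGGGAA, with first bases at -197 and -168 from the start, and the promoters of Efnb2, Ephb1, Ephb2, Ephb3, Ephb4 and Ephb6 held neither motif. A match is a string of letters, not a bound site, and a missing match speaks only of this window. The 250 bases before the start are shown for Efnb1 and Efnb2, the abundant ligands, whose means differed in opposite directions, and for Ephb1, the receptor with the largest difference. They are read 5′ to 3′ on the gene's strand, at chrX:99135811-99136060 on the plus strand for Efnb1, chr8:8661243-8661492 on the minus strand for Efnb2 and chr9:102354694-102354943 on the minus strand for Ephb1, with capitals marking TGGGAA.
Efnb1: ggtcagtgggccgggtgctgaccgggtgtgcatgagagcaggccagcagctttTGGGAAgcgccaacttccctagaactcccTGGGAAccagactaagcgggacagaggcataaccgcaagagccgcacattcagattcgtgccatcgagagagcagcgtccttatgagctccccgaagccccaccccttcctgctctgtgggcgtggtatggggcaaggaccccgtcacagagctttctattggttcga
Efnb2: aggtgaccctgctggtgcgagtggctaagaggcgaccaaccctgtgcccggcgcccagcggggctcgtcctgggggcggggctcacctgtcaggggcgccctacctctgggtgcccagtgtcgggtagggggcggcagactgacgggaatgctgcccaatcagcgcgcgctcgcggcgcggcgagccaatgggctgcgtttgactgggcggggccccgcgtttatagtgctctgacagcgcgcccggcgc
Ephb1: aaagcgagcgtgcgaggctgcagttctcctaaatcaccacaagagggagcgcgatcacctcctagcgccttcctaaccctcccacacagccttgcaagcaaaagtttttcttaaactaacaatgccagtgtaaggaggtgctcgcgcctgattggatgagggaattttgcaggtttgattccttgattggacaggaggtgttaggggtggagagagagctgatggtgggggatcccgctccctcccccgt

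Notch3 itself was read first, as a check on the labels. Its counts in Sets 1 to 4 were 39, 34, 74 and 53 in Control against 3864, 319, 10026 and 6915 in Notch3IC, so every Notch3IC library lay above every Control library. The log2 ratio within the set was 6.79, 3.51, 7.01 and 7.10, with the smallest value in Set 2. Set 1 stood apart in the deviations of libraries from their group means. Those of its Control and Notch3IC libraries correlated at 0.79 across genes, against 0.41 to 0.57 in the other sets. They correlated negatively with those of Sets 3 and 4, which is partly fixed, since deviations from a group mean sum to 0. Values of the B-class genes are therefore also given without Set 1 and without Set 2 where a call or a side of the p threshold changes.

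Of the 8 B-class genes, Ephb1 alone was called, and it was higher in Notch3IC. The criterion for a call was an adjusted p below 0.1 with a change of 1 or more on the log2 scale, up or down, in edgeR's quasi-likelihood test, with Benjamini-Hochberg adjustment over all 12430 genes. Under this rule 423 genes (3.40%) were called higher and 92 (0.740%) lower, which is the background for the 1 of 8 members called higher. No member was called lower by edgeR or by DESeq2. At an unadjusted p below 0.05 edgeR had 3 higher members, Efnb1, Ephb1 and Ephb2, against 11.8% of all genes tested, and 0 lower against 6.65%. DESeq2 had the same 3 as higher and 1, Efnb2, as lower, where 16.5% of its 17359 genes passed in either direction. The median log2 fold change was 0.21 over the 8 members and -0.01 over all genes tested. Members were higher in 4 cases and lower in 4. In the plot of normalized counts by library each member has its own scale. Normalized counts are scaled by TMM to a library of mean size.

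**Figure D1:**
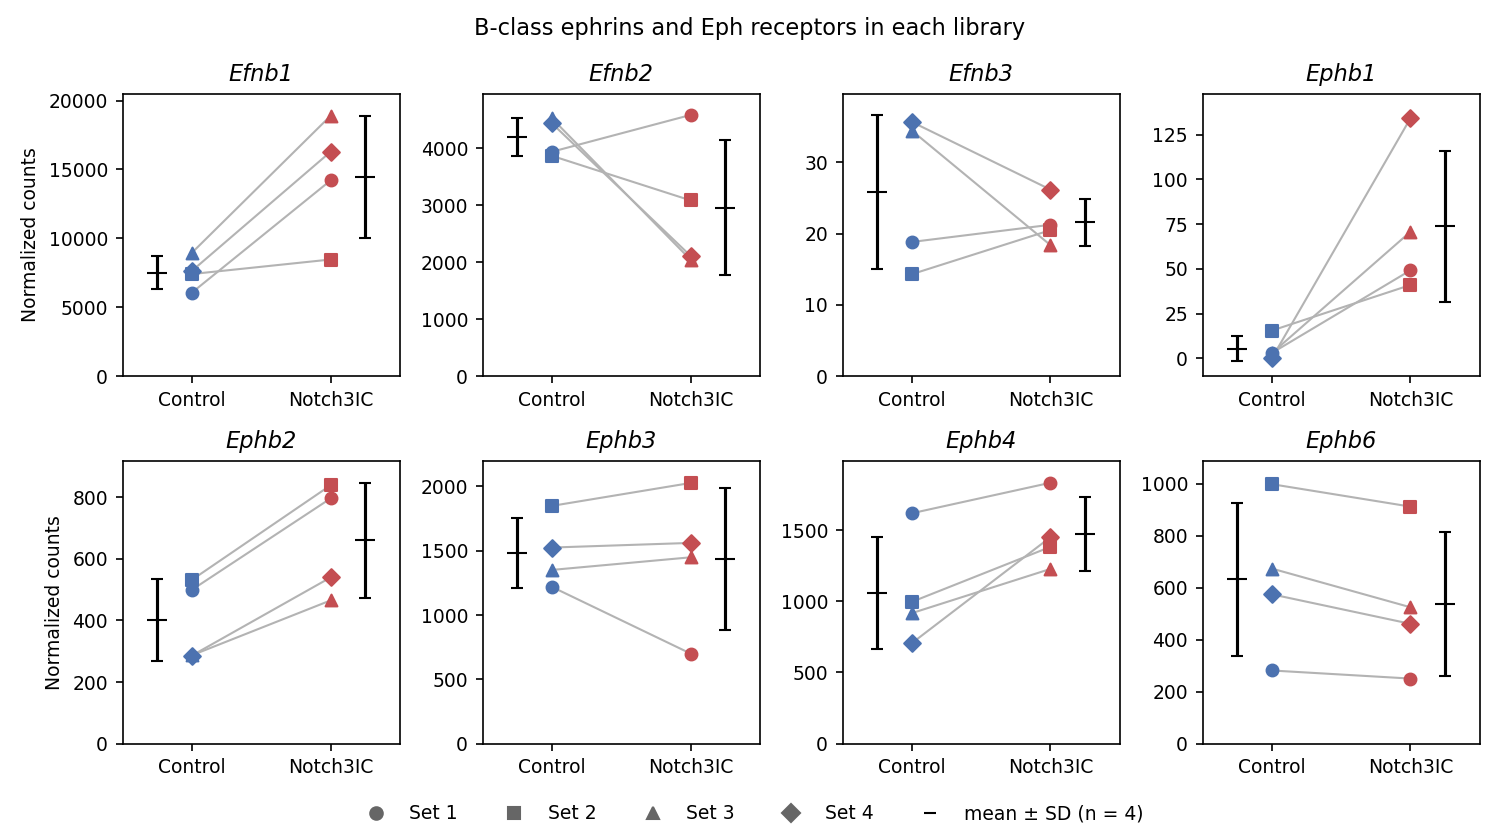
Normalized counts (linear axes, a separate scale for each gene) of the 8 B-class genes in the 4 Control and 4 Notch3IC libraries, with grey lines joining the libraries of a set and black bars giving the mean ± SD. All 4 Notch3IC libraries lie above the Control libraries for Ephb1, while the lines of Efnb2 rise in Set 1 and fall in Sets 2, 3 and 4.

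Efnb1 encodes ephrin-B1, a ligand known for cell sorting in the developing skull. It was the most abundant member, with 6064, 7411, 8956 and 7643 normalized counts in Control of Sets 1 to 4 and 14200, 8465, 18890 and 16280 in Notch3IC. The groups overlapped only through Set 2, whose Notch3IC library lay below the Control library of Set 3. The means were 7519 ± 1184 and 14460 ± 4433 (SD, n = 4 libraries each), which differed by 0.94 ± 0.24 (standard error) on the log2 scale (adjusted p = 0.072). Efnb1 passed the p threshold but not the fold limit, and was not called. At any fold and in either direction 832 genes (6.69%) had an adjusted p below 0.1, and 2 of the 8 members, Efnb1 and Ephb1, were among them. Within sets the log2 ratio was 1.23, 0.19, 1.08 and 1.09. Without Set 2 Efnb1 was called (log2 fold change 1.12, adjusted p = 0.0198), and leaving out only its Notch3IC library also gave a call (1.13, adjusted p = 0.00534). Without Set 1 the adjusted p was 0.158, without Set 3 it was 0.332 and without Set 4 it was 0.511, at log2 fold changes of 0.86, 0.88 and 0.89. Here and below, ± after a log2 fold change is its standard error.

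Efnb2 encodes ephrin-B2, the arterial ligand of EphB4. It had 3937, 3865, 4522 and 4435 normalized counts in Control and 4582, 3084, 2043 and 2111 in Notch3IC. The Control libraries were close together, while the Notch3IC libraries ran from the highest value of all 8 in Set 1 to less than any Control library in Sets 2, 3 and 4. The means were 4190 ± 336 and 2955 ± 1185 (SD, n = 4), and the log2 fold change of -0.50 ± 0.25 (standard error) was not called (adjusted p = 0.327). An exact two-sided permutation test over the 8 libraries gave p = 0.143, where the smallest p that 4 against 4 libraries allow is 0.0286. The log2 ratios within sets were 0.22, -0.33, -1.15 and -1.07. Without Set 1 the log2 fold change was -0.83 (adjusted p = 0.0709), past the p threshold and under the fold limit, and leaving out only its Notch3IC library gave -0.80 (adjusted p = 0.0633). Without Set 2, 3 or 4 the log2 fold change was -0.56, -0.32 and -0.34 (adjusted p = 0.375, 0.844 and 0.89). With a set block it was -0.58 over all libraries (adjusted p = 0.158) and -0.85 without Set 1 (adjusted p = 0.129), neither past the threshold.

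Efnb3, a ligand best known from the nervous system, was scarce, with 12 to 45 counts in Control and 14 to 31 in Notch3IC. Its normalized counts averaged 25.8 ± 10.8 and 21.6 ± 3.30 (SD, n = 4). The groups overlapped, with 2 sets higher and 2 lower, and the means differed by -0.26 ± 0.35 on the log2 scale (adjusted p = 0.750).

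Among the receptors Ephb1, an EphB receptor for ephrin-B ligands, differed most. It was counted 3, 13, 3 and 0 times in Control of Sets 1 to 4 and 44, 28, 77 and 159 times in Notch3IC. All 4 Notch3IC libraries lay above the 4 Control libraries, which held for 878 of the genes tested (7.06%), and 468 (3.77%) had all 4 below. Ephb1 was the only member whose groups did not overlap. The means were 5.34 ± 6.92 and 73.8 ± 42.2 normalized counts (SD, n = 4), 3.88 ± 0.86 (standard error) apart on the log2 scale (adjusted p = 0.0491). These are low counts, so each set was also read with the counting error alone (95% exact intervals, which leave out the spread between cultures). The ratio of Notch3IC to Control was 16.5 in Set 1 (5.30 to 83.3), 2.64 in Set 2 (1.32 to 5.56) and 24.6 in Set 3 (8.12 to 122). In Set 4, where Control had 0 counts, it was at least 56.5-fold higher against a floor of 3 counts, equal to 2.38 normalized counts. The call was lost when Control of Set 3 (adjusted p = 0.162) or Set 4 (0.122) was left out, and when Notch3IC of Set 3 (0.120) or Set 4 (0.152) was. Without Set 1 it was kept (log2 fold change 3.89, adjusted p = 0.0996), and without Set 2 it was kept at a log2 fold change of 5.44 (adjusted p = 0.0135). Without Set 3 or Set 4 the log2 fold change was 3.7 and 2.95 (adjusted p = 0.340 and 0.317), and of all genes tested 1 and 0 were called there. In the annotation 2.17% of its exon bases overlap Gm26846 on the opposite strand, and whether the counting used strand is not given in the sources used here.

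Ephb2, a receptor known from axon guidance and from cell positioning in the gut lining, was higher in Notch3IC in every set by a like amount. It had 500, 532, 287 and 286 normalized counts in Control and 796, 839, 465 and 540 in Notch3IC. Sets 1 and 2 were higher than Sets 3 and 4 in both conditions, so the groups overlapped although each Notch3IC library lay above its own Control. The means were 401 ± 133 and 660 ± 185 (SD, n = 4), with a log2 fold change of 0.72 ± 0.28 (standard error) that was not called (adjusted p = 0.216). Within sets the log2 ratios were 0.67, 0.66, 0.70 and 0.91. Blocking on the set gave 0.73 ± 0.08 (adjusted p = 0.0156), past the p threshold and under the fold limit. With Set 1 or Set 3 left out of the blocked fit the adjusted p was 0.105 and 0.102, at log2 fold changes of 0.75 in both.

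Ephb4, the venous receptor for ephrin-B2, had 1618, 996, 917 and 706 normalized counts in Control and 1832, 1382, 1227 and 1450 in Notch3IC. Each set showed the higher value in Notch3IC, and the groups overlapped through the Control library of Set 1, which lay above 3 of the 4 Notch3IC libraries. The means were 1059 ± 392 and 1473 ± 257 (SD, n = 4), and the log2 fold change of 0.48 ± 0.25 (standard error) was not called (adjusted p = 0.351). The exact permutation test gave p = 0.114. The log2 ratios within sets were 0.18, 0.47, 0.42 and 1.04. Under the set block the value was 0.53 ± 0.14 (adjusted p = 0.060). With Set 1, 3 or 4 left out of the blocked fit the adjusted p was 0.131, 0.186 and 0.159. With no block it was 0.63 without Set 1 (adjusted p = 0.075) and 0.75 without the Control library of Set 1 (adjusted p = 0.0657). Omitting Set 2, 3 or 4 instead gave 0.48, 0.49 and 0.33 (adjusted p = 0.451, 0.74 and 0.887). With any other single library omitted the adjusted p was 0.33 to 0.609, again above the threshold. Of its exon bases 0.71% overlap Zan on the opposite strand.

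Ephb3, a receptor that shares roles with EphB2 in the gut lining, averaged 1486 ± 272 normalized counts in Control and 1435 ± 550 in Notch3IC (SD, n = 4). Its log2 fold change of -0.05 ± 0.29 (adjusted p = 0.956) took its sign from Set 1, where the log2 ratio was -0.80 against 0.13, 0.10 and 0.03 in Sets 2 to 4. Without Set 1 the log2 fold change was 0.09. Ephb6, a receptor without kinase activity, averaged 632 ± 296 and 537 ± 276 (SD, n = 4). Its levels varied more between sets than between conditions, from 281.5 in Set 1 to 998 in Set 2 within Control. The log2 fold change was -0.24 ± 0.45 (adjusted p = 0.837), with log2 ratios of -0.17, -0.13, -0.36 and -0.32 in Sets 1 to 4. In the blocked fit it was -0.25 ± 0.08 (adjusted p = 0.0838, and 0.158, 0.35 and 0.327 with Set 1, 3 or 4 left out).

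Read by set, Efnb1, Ephb1, Ephb2 and Ephb4 were higher in Notch3IC in 4 of 4 sets and Ephb6 was lower in 4 of 4. Of all genes tested 21.0% were higher and 19.4% lower in every set, so a direction shared by all sets was common. Blocking on the set, 645 genes (5.19%) were called higher and 315 (2.53%) lower, and Ephb1 was again the 1 member called (log2 fold change 3.92, adjusted p = 0.0452), a call lost from the blocked fit with Set 1 (adjusted p = 0.151), Set 3 (0.205) or Set 4 (0.127) left out. At any fold the block put 14.9% of genes past the p threshold as higher and 12.1% as lower, and 5 of the 8 members were among them, Efnb1, Ephb1, Ephb2 and Ephb4 as higher and Ephb6 as lower. This count was 0 with Set 1 or Set 3 left out of the blocked fit and 1, Ephb2, with Set 4 left out, and the same 5 members passed only with Set 2 left out. Set 2, which had the smallest ratio of Notch3, also had the smallest ratio of Efnb1 and of Ephb1, and that of Ephb2 was also smallest there, at 0.66 against 0.67 in Set 1, while that of Ephb4 lay within the range of the other sets. The plot of ratios by set shows these patterns side by side. With 1 library per condition in a set, differences between sets were not tested. The direction of each member was the same under TMM, RLE and upper-quartile scaling and under library totals.

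**Figure D2:**
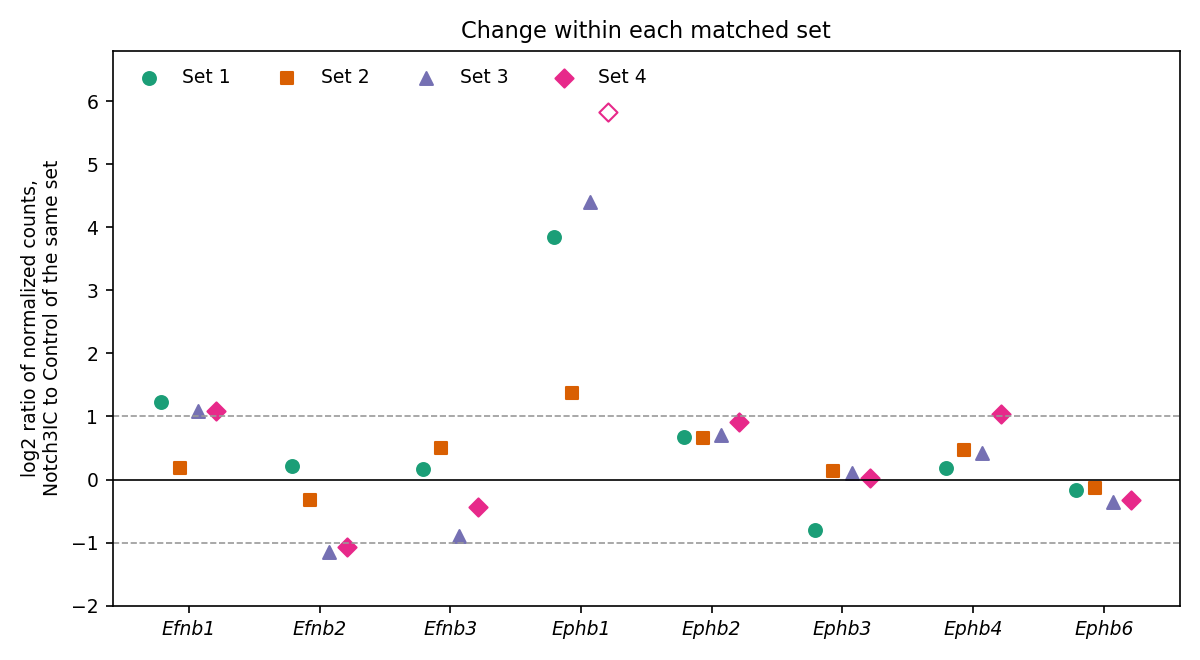
log2 ratio of normalized counts (pseudocount 0.5) of Notch3IC to Control within each of Sets 1 to 4, for each B-class gene, with dashed lines at 1 and -1. The open diamond is the lower bound for Ephb1 in Set 4, where Control had 0 counts, and the 4 points of Ephb2 lie between 0.66 and 0.91 while those of Efnb2 run from -1.15 to 0.22.

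Levels of different genes were compared as CPM, counts scaled to a common library size, per kilobase of merged exons. In Control the order of mean levels was Efnb1 (93.4), Efnb2 (26.2), Ephb4 (9.78), Ephb3 (9.59), Ephb6 (7.18), Ephb2 (1.36), Efnb3 (0.348) and Ephb1 (0.0327). The ranges of neighbours overlapped for Ephb4 and Ephb3 and for Ephb3 and Ephb6. In Notch3IC the order was Efnb1 (179.5), Efnb2 (18.5), Ephb4 (13.6), Ephb3 (9.26), Ephb6 (6.10), Ephb2 (2.24), Ephb1 (0.452) and Efnb3 (0.290), and ranges overlapped for each neighbouring pair from Efnb2 to Ephb2 and for Ephb1 and Efnb3. With the length of the longest coding transcript in place of merged exons, Ephb3 stood at 13.4 in Control and at 13.0 in Notch3IC, Ephb4 at 10.5 and 14.5, and Efnb2 at 37.5 and 26.4. The order of Ephb4 and Ephb3 in Control was thus reversed, with their ranges still overlapping, and in Notch3IC the ranges no longer overlapped for Efnb2 and Ephb4 or for Ephb1 and Efnb3. Ephb1 thus stayed a minor receptor in level, at 0.102% ± 0.120 of the summed receptor level in Control and 1.47% ± 0.847 in Notch3IC (SD, n = 4).

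The ligand pool was mostly Efnb1 in both conditions, as the plot of summed levels shows. Its share of the summed ligand level was 77.7% ± 1.98 in Control and 89.7% ± 5.31 in Notch3IC (SD, n = 4), and that of Efnb2 was 22.0% ± 1.97 and 10.2% ± 5.31. The level of Efnb1 over that of Efnb2 was 3.06, 3.81, 3.93 and 3.42 in Control of Sets 1 to 4 and 6.15, 5.45, 18.4 and 15.3 in Notch3IC. This ratio did not overlap between conditions, although the groups of Efnb1 and those of Efnb2 did and neither gene was called. It sets a gene with a higher mean in Notch3IC over one with a lower mean, which favours such a separation. The ratio was highest in Notch3IC of Sets 3 and 4, where Efnb2 was lowest. The level of Efnb2 over that of its receptor Ephb4 was 1.65, 2.63, 3.34 and 4.25 in Control and 1.69, 1.51, 1.13 and 0.986 in Notch3IC. Within a set it was lower in Notch3IC in Sets 2, 3 and 4 and about level in Set 1. The summed ligand level was 119.9 ± 16.5 in Control and 198.2 ± 52.2 in Notch3IC, and the summed receptor level was 27.9 ± 4.56 and 31.6 ± 5.37. These ratios and sums are descriptions of genes already tested one by one and carry no test.

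**Figure D3:**
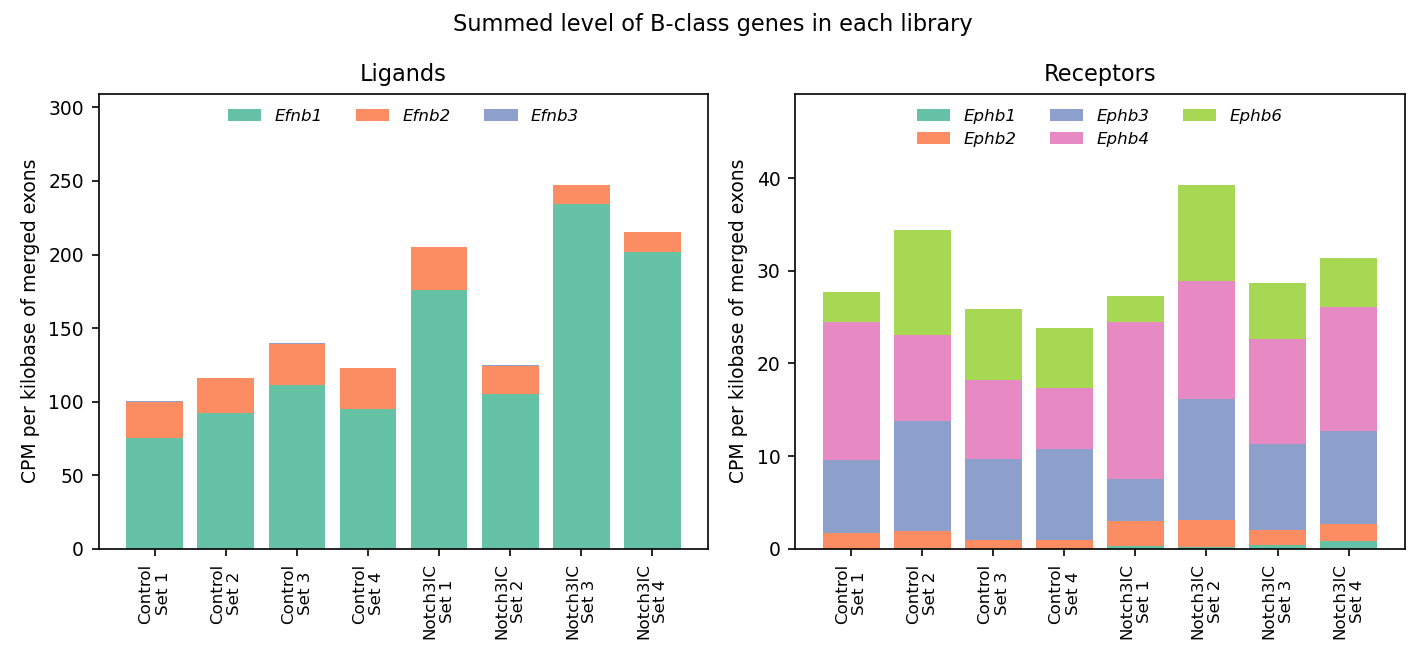
Stacked levels (CPM per kilobase of merged exons, linear axes from 0, a separate scale in each panel) of the ligands and of the receptors in each library. Efnb1 makes up 75.2% to 79.5% of the ligand level in Control and 84.3% to 94.7% in Notch3IC, and Ephb1 is a thin layer of the receptor level, at most 2.62%.

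The other class of the family, A-class ephrins and EphA receptors, gave 1 called gene of 10 tested (14 listed), a receptor called higher. Of all genes tested 3.40% were called higher. Epha3, an EphA receptor, had 24, 36, 14 and 16 counts in Control and 504, 166, 815 and 1441 in Notch3IC. Its Notch3IC libraries all lay above its Control libraries, as in 7.06% of the genes tested. The groups lay 4.93 ± 0.60 (standard error) apart on the log2 scale (adjusted p = 0.0169). Epha3 was called without any single library and without Set 1 or Set 2. Without Set 3 or Set 4 the adjusted p was 0.215 and 0.218, and in the blocked fit (0.0264) it was 0.115 to 0.134 with Set 1, 3 or 4 left out. Efna3, a ligand with at most 27 counts, and Epha2, the most abundant A-class gene, were not called, at log2 fold changes of 1.11 (adjusted p = 0.300) and -0.71 (adjusted p = 0.225). The median over the 10 genes tested was 0.02. The plot of fold changes in both classes shows Ephb1 and Epha3 apart from the rest. Whether the 2 classes differ was not tested.

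**Figure D4:**
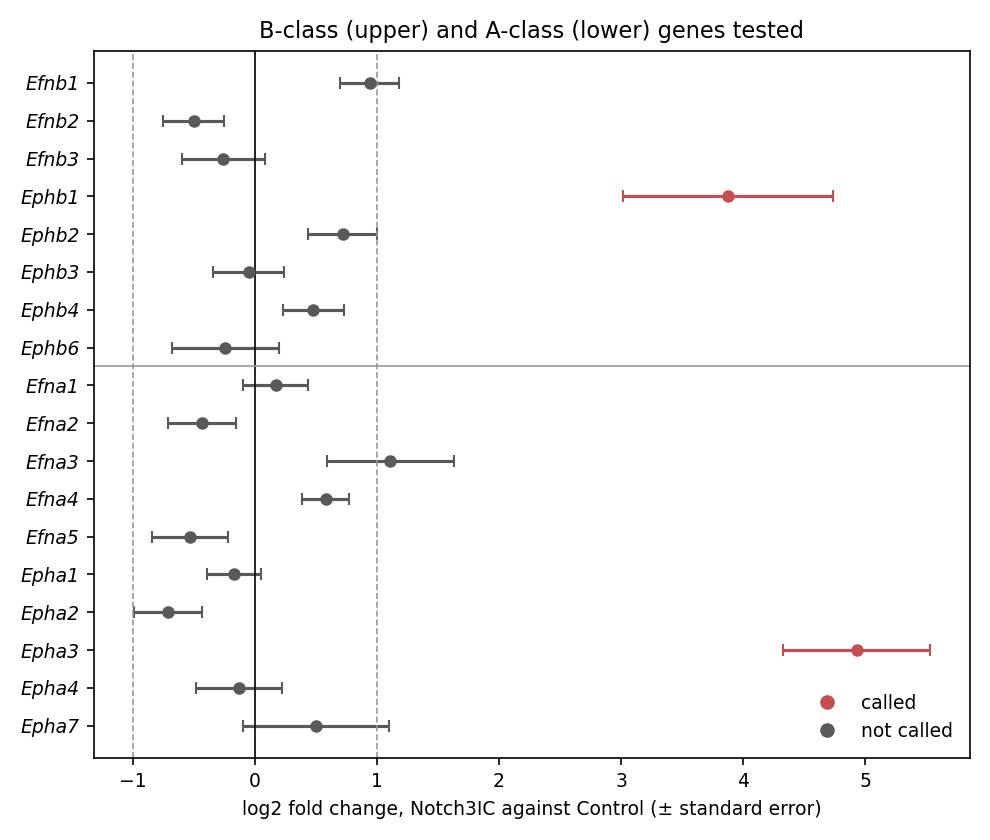
log2 fold change of Notch3IC against Control with its standard error for the 8 B-class genes (above the line) and the 10 A-class genes tested (below it), with dashed lines at 1 and -1. Ephb1 (3.88) and Epha3 (4.93) are called, and every other gene lies between -0.71 and 1.11.

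Of 45 genes listed for Eph and ephrin signaling, 40 were tested, 2 were called higher and 1 lower, with a median log2 fold change of 0.02. Of all genes tested 3.40% were called higher and 0.740% lower. Sh2d3c, an SH2-domain adaptor that binds Eph receptors, had 11, 11, 20 and 20 counts in Control and 170, 18, 702 and 340 in Notch3IC, a log2 difference of 4.27 ± 0.83 (adjusted p = 0.0372). Its Notch3IC library of Set 2 lay far below the other 3. Socs2, a suppressor of cytokine signaling, was higher by 1.85 ± 0.37 on the log2 scale (adjusted p = 0.0387). Ptprf, a receptor tyrosine phosphatase, was lower at -2.15 ± 0.55 (adjusted p = 0.0749), with 1931, 515, 3187 and 2928 counts in Control and 398, 131, 885 and 382 in Notch3IC. None of the 3 was called without Control of Set 3 (adjusted p 0.111 to 0.191), Control of Set 4 (0.134 to 0.198) or Notch3IC of Set 4 (0.108 to 0.230). Socs2 was also not called without Notch3IC of Set 3 (0.112), nor Ptprf without Notch3IC of Set 1 (0.145). Without Set 3 or Set 4 none of the 3 was called, at adjusted p values of 0.246 to 0.274 and 0.343 to 0.544, and Ptprf was not called without Set 1 (0.158). In the blocked fit 5 genes of the list were called, the other two being Rgs3 (log2 fold change 1.27, adjusted p = 0.0791) and Grip1 (-1.12, adjusted p = 0.0839), named after their values were seen. Neither was called with Set 1, 3 or 4 left out of the blocked fit (adjusted p 0.201 to 0.310). With no block Rgs3 was called by DESeq2 (adjusted p = 0.0988) and without Notch3IC of Set 2 (0.0615). In the blocked fit with Set 1, 3 or 4 left out, Sh2d3c was not called (adjusted p 0.126 to 0.148). Among these 3 fits Socs2 was called only without Set 4 (0.083), and Ptprf without Set 3 (0.0612) or Set 4 (0.00913).

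Genes of arterial and venous identity were listed because Efnb2 and Ephb4 belong to that program in vessels. Of 19 listed genes, with Efnb2 and Ephb4 themselves among them, 12 were tested and 4 were called, all higher. Of all genes tested 3.40% were called higher. The 4 called genes were the Notch target repressors Hey1, Hey2 and Heyl and the venous regulator Nr2f2. Hey1 and Heyl were also read as a check on the labels. The median log2 fold change over the 12 genes, Efnb2 and Ephb4 included, was 0.52. Hey1 averaged 35.1 ± 15.3 and 5790 ± 4471 normalized counts in the 2 conditions, Control first, with a log2 fold change of 7.35 (adjusted p = 0.0169). Hey2 had 3, 2, 1 and 5 counts in Control and 314, 16, 629 and 381 in Notch3IC (adjusted p = 0.0182). In Control no library held more than 2 counts of Heyl, which was at least 1113-fold higher against a floor of 3 counts per library (adjusted p = 0.0169), a bound that was 702.9 without Set 3 and 1571 without Set 2. Nr2f2 averaged 1241 ± 374 and 2782 ± 899 (log2 fold change 1.17, standard error 0.29, adjusted p = 0.0708), with its groups overlapping. Its call was lost without each single library (adjusted p 0.124 to 0.208) except Control of Set 1 and Notch3IC of Set 2, and without Set 3 (0.437) or Set 4 (0.517). The Hey genes were called without any single library and lost the call without Set 3 (adjusted p 0.215 to 0.225) or Set 4 (0.221 to 0.229). In the blocked fit Flt4, a lymphatic and venous VEGF receptor named after its values were seen, was also called, as lower (log2 fold change -1.94, adjusted p = 0.0277). With Set 1, 3 or 4 left out of the blocked fit Flt4 (adjusted p 0.126 to 0.139) and Nr2f2 (0.137 to 0.233) were not called, while the 3 Hey genes were. With no block Flt4 was called lower by DESeq2 (-1.80, adjusted p = 0.0233), without Set 1 (-1.77, 0.0844), without Set 2 (-2.37, 0.0994), and without Control of Set 1 (0.0983) or Notch3IC of Set 2 (0.0497). Nrarp, a Notch target read with Notch3 as a check, had a log2 fold change of 7.34 (adjusted p = 0.0169).

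Markers of other cell types were read because vessels and leukocytes also express this family. In bulk RNA, fewer cells of a type and less RNA per cell cannot be told apart. The endothelial markers Erg and Cldn5 were at 0 in every library and Cdh5 had at most 2 counts. Pecam1, the most abundant of the 8 endothelial markers, had 9 to 30 counts (log2 fold change 0.60, adjusted p = 0.487) and Kdr 4 to 22 (0.51, adjusted p = 0.679). The summed level of the endothelial list was 22.8, 38.2, 24.9 and 13.5 normalized counts in Control and 51.4, 32.2, 30.3 and 40.5 in Notch3IC. Of the leukocyte markers Cd3e was at 0 and Ptprc had at most 2 counts, while Cd68, which many cells express, had 31 to 150 (log2 fold change -0.40, adjusted p = 0.610). The summed level of the leukocyte list was 47.6, 79.9, 83.2 and 120.5 in Control and 42.5, 67.3, 67.1 and 97.1 in Notch3IC.

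The labels give ovarian surface epithelium as the tissue. Of 10 markers listed for it 7 were tested, all with a lower mean in Notch3IC, and the median log2 fold change was -0.80. Krt7 had 5, 2, 46 and 7 counts in Control and 1 or 2 in Notch3IC, Epcam had 5 to 12 and 2 to 5, and Pax8 at most 3 in any library. These 3 did not pass the expression filter. For Krt7 and Epcam every Notch3IC library lay below every Control library in normalized counts, which held for 3.77% of the genes tested. These are counts near the floor, and for Epcam the groups were parted by 5.855 in Notch3IC against 5.963 in Control, both of Set 2. Msln, which encodes mesothelin, was the 1 marker called, as lower (log2 fold change -2.60, standard error 0.63, adjusted p = 0.0625), where 0.740% of all genes tested were called lower. Its call was lost without Control of Set 3 (adjusted p = 0.162) or Set 4 (0.185), without Notch3IC of Set 3 (0.180) or Set 4 (0.195), and without Set 3 (0.401) or Set 4 (0.493). The keratin gene Krt19 had a log2 fold change of -2.12 (adjusted p = 0.124) and Upk3b, the most abundant of the list, -1.72 (adjusted p = 0.220). Under the block 3 markers were called lower, Msln, Krt19 and Upk3b (adjusted p 0.0288 to 0.0319), and none of the 3 with Set 1, 3 or 4 left out of it (0.126 to 0.169). With no block Krt19 and Upk3b were both called lower without Set 1 (log2 fold changes -2.12 and -1.64, each with adjusted p = 0.0653) and by DESeq2 (0.00519 and 0.0467), and Krt19 also without Control of Set 1 (0.0662) or Notch3IC of Set 2 (0.0806). The summed level of the list was 21540, 39820, 63200 and 61510 normalized counts in Control and 7040, 25590, 24060 and 18350 in Notch3IC. It was thus lower in Notch3IC in every set, and its part in the B-class results was not tested.

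The genes most like Efnb2 across the 8 libraries, by Pearson correlation of log2 CPM, were Slc4a7 (0.981), Zdhhc21 (0.956), Cpox (0.956), Tmem2 (0.953) and Pvr (0.947), with log2 fold changes of -0.45 to -0.25, none of them called. Those most like Ephb4 were B4galt2 (0.988), Hhipl1 (0.979), Dse (0.978), Obsl1 (0.976) and Fam59b (0.974), with log2 fold changes of 0.28 to 1.17, none called. The libraries share their sets and their normalization, and these are the top 5 of 12430 genes, so the correlations are a description only.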

How the data were processed

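Polyadenylated RNA from the 4 Control and 4 Notch3IC lines was sequenced as single-end reads. The authors deposited raw counts per gene symbol, 1 table per library, without normalization. The submitters' processing notes list TopHat, Cufflinks, DESeq and mm9, while versions, the annotation and the strandedness are not given in the sources used here. Library totals ran from 15524262 to 28208072 counts. Symbols were placed on GRCm38 with GENCODE M21 (20882 directly and 1909 by synonym), which gave exon lengths and overlaps; coordinates are of that build and not of mm9. No 50-base word is shared between transcripts of different members.

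Notch3IC was compared with Control in edgeR 4.0.16 under R 4.3.3 (TMM, filterByExpr by condition, robust quasi-likelihood F test, condition as the only term), with the study's thresholds, an adjusted p below 0.1 (Benjamini-Hochberg over 12430 genes) and a fold limit of 1 on the log2 scale. The standard error is the size of the log2 fold change divided by the square root of F. Ratios within sets use a pseudocount of 0.5, and p-values measure the spread between lines. The sets pair the libraries: each comes from 1 infection round according to the study, and deviations of matched libraries correlated at 0.79, 0.41, 0.57 and 0.43, against -0.51 to 0.40 for crossed ones. The biological coefficient of variation was 26.3%, and 14.1% with the set as a block.

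The alternatives were DESeq2 1.42.0, RLE, upper-quartile and library-total scaling, no filter, at least 10 counts in every library, the block, an adjusted p below 0.05, no fold limit, each library or set left out, a pseudocount of 5 and transcript length. On simulated data 36.5% of 200 genes changed by a log2 fold change of 1 were recovered, 94.5% at 2 and 96.5% at 3, with 4, 9 and 13 unchanged genes called. Recovery included the fold limit, so at a change of 1 an estimate below 1 counted as missed whatever its p. The value at 1 is thus not the sensitivity of the p threshold. The simulated libraries were not paired by set. The members, defined by symbol, and the lists were chosen with earlier results of these data known. Genes named by rule are all members, the called genes of each other list with its 3 largest fold changes, the 5 genes most correlated with Efnb2 and with Ephb4, and Notch3, Hey1, Heyl and Nrarp as a check on the labels. Outside the rule, markers with few or no counts (Erg, Cldn5, Cdh5, Cd3e, Ptprc, Krt7, Epcam and Pax8) were named after their values were seen. Exact permutation tests used SciPy 1.17.1. Figures were drawn with Matplotlib 3.10.9. Intervals and floors cover counting error only.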

Additional observations from a re-analysis of the deposited data

Results flagged for a closer look

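Among the 4 Control libraries, Notch3 stood at 70.8 normalized counts in Set 3, against 38.7 to 42.0 in the other 3 Control libraries. The gap to its nearest neighbour was 0.896 of the whole range of the group, which is what drew attention to it. This was 1 of 42 groups of 4 libraries examined in this way, and chance alone singles out about 1 in 20.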

How the results depend on the processing

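The log2 fold changes of Efnb2 (-0.85 to -0.32) and Ephb4 (0.32 to 0.75) kept their direction and stayed uncalled under all 25 alternatives, and no member was called lower under any. Ephb1 kept its direction under the 24 alternatives that could test it (2.95 to 5.44) and lost its call under 9 of them, which left out a library or a set. Requiring 10 or more counts in each library removed it from the test, which left 0 members called higher and 2 arterial and venous genes called. Without a fold limit 2 members counted as higher, and 210 genes as lower. An adjusted p below 0.05 left 48 genes lower. DESeq2 called 707 genes higher and 192 lower. With the set as a replicate block 645 genes were called higher and 315 lower, and 5 signaling genes, and no call among the members changed. Leaving out 1 library or 1 set gave 0 to 2 members called higher, 0 to 702 genes higher, 0 to 305 lower, 0 to 2 A-class, 0 to 4 signaling and 0 to 5 arterial and venous genes. Without Set 3, 1 gene was called and without Set 4 none was, while 1101 and 1011 genes had an unadjusted p below 0.05. The block without Sets 1, 2, 3 and 4 called 0, 2, 0 and 0 members higher, 46, 904, 59 and 129 genes higher, 23, 426, 22 and 30 lower, 0, 2, 0 and 0 A-class genes, 0, 7, 1 and 2 signaling genes, and 3, 6, 3 and 3 arterial and venous genes. Signs turned for Ephb3, which ran from -0.26 to 0.18 with a library or set left out (Ephb6 from -0.62 to 0.07). They turned for Ephb3 without Notch3IC of Set 1 (0.18), Control of Set 2 (0.07), Set 1 (0.09) and Set 1 with the block (0.09), for Ephb6 without Control of Set 2 (0.07) and for Efnb3 without Set 3 with the block (0.01), and the cause was not tested. The log2 ratio of Ephb1 in Set 4, where Control had 0 counts, is set by the pseudocount (8.07 at 0.5 and 4.80 at 5), so that set is described by its bound alone. Depth limits Efnb3 and Ephb1, which had few counts in Control.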
